A study of Homo sapiens with 12 samples.

Results

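The 35 genes described here encode the enzymes, transporters and regulators of glycolysis, pyruvate entry into mitochondria and the pentose phosphate pathway, including the transketolase-like gene TKTL1. They were chosen by name, each matched 1 Ensembl identifier, and together they made up 35 of the 28747 identifiers in the table of read counts. The 12 RNA-seq libraries came from DU145, a human prostate cancer line derived from a brain metastasis. Cells carried a lentiviral short hairpin RNA, either a control (shCtrl) or a targeting one (shSigma), and each kind was grown adherent in serum or as tumor spheres without attachment in serum-free medium with growth factors. This gave 4 groups of 3 libraries: adherent shCtrl, adherent shSigma, sphere shCtrl and sphere shSigma.

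All cells had passed through lentiviral transduction and selection. The methods name a single hairpin clone for the stable lines. Elsewhere another targeting hairpin appears, and the sequenced cells are not tied to either of them or to separate transduced populations. An effect of the hairpin and a difference between selected populations therefore cannot be told apart. Medium and attachment differed together between the cultures. RNA was isolated in independent replicates, and library totals ran from 16472722 to 26957777 counts. CPM below are read counts divided by library size, with TMM scaling. Summed over 5 epithelial markers (KRT8, KRT18, KRT19, EPCAM, CDH1) the level was 878 to 964 CPM in adherent shCtrl, 1140 to 1450 in adherent shSigma, 2280 to 2350 in sphere shCtrl and 897 to 954 in sphere shSigma cells, but single markers went opposite ways. EPCAM was at 213 to 264 CPM in adherent shCtrl against 29.7 to 32.4 CPM in adherent shSigma cells and at 578 to 663 against 60.7 to 63.6 CPM in spheres, and CDH1 at 26.8 to 26.9 against 10.7 to 13.9 CPM and at 678 to 770 against 23.9 to 30.1 CPM. KRT8, KRT18 and KRT19 were above their shCtrl ranges in adherent shSigma cells, and in spheres KRT8 and KRT18 were below, while KRT19 was at 183.0 to 209.4 CPM in shCtrl and 210.1 to 231.2 CPM in shSigma spheres, ranges that barely part. Leukocyte markers summed to at most 1.19 CPM and endothelial markers to at most 0.905 CPM. Fibroblast markers (COL1A1, COL1A2, DCN) summed to between 3.47 and 9.59 CPM in adherent cells, 20.3 to 26.5 CPM in sphere shCtrl and 9.96 to 14.3 CPM in sphere shSigma cells. The part of this marker shift in the results below was not tested.

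Glycolysis splits glucose into pyruvate: glucose enters through facilitative transporters, is phosphorylated by hexokinase, committed at phosphofructokinase, cleaved by aldolase and oxidised by GAPDH, and pyruvate is then reduced to lactate or oxidised in mitochondria. The pentose phosphate pathway branches off at glucose 6-phosphate. Its oxidative arm makes NADPH and ribulose 5-phosphate, and its non-oxidative arm, run by transketolase (TKT) and transaldolase (TALDO1), returns sugar phosphates to glycolysis or supplies ribose for nucleotides. TKTL1 resembles transketolase in sequence, and its own catalytic activity has been debated. Several of these genes are classical targets of hypoxia-inducible factor and MYC.

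Promoter windows are shown for the 3 genes of the transketolase question and for 2 genes picked because they fell strongly in spheres. The windows are examples and not a comparison of genes that fell with genes that did not. Each is the most upstream RefSeq window of its gene on GRCh38.p14, from 250 bases before to 50 bases after the transcript start, read 5′ to 3′ on the gene's strand. Capitals mark ACGTG or GCGTG, the core letters of the hypoxia response element, or their reverse complements.
TKTL1 (chrX:154295545-154295844, plus strand): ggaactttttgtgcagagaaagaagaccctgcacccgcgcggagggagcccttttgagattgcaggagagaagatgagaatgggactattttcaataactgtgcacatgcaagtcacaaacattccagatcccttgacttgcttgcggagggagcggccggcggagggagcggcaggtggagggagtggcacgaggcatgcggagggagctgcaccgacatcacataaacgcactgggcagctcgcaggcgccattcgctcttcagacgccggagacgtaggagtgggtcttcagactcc
TKT (chr3:53255973-53256272, minus strand): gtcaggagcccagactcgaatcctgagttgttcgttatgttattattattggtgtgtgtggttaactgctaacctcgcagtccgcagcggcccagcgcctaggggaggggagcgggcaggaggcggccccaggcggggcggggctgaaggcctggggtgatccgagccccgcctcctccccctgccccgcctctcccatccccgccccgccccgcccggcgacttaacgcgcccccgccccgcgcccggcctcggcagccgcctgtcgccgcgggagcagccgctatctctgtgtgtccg
TALDO1 (chr11:747214-747513, plus strand): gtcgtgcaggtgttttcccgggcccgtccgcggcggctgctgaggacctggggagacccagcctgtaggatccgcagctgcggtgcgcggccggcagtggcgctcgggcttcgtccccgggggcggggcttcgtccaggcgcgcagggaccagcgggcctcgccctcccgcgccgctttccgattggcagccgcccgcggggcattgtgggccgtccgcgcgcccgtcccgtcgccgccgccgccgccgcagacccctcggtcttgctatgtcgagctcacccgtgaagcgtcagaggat
PFKFB4 (chr3:48556754-48557053, minus strand): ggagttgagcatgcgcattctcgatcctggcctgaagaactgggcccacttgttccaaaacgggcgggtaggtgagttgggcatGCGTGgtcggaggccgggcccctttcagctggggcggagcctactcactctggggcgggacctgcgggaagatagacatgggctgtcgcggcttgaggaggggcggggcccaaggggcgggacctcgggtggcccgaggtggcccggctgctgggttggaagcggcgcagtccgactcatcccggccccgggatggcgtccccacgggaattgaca
HK2 (chr2:74833877-74834176, plus strand): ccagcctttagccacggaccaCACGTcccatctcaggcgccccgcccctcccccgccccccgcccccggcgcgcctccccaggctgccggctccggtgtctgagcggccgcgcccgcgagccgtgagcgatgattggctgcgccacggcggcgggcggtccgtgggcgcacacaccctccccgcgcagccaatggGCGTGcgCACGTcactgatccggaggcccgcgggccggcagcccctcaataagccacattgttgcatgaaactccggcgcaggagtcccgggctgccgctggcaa

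The TKTL1, TKT and TALDO1 windows held none of these letters on either strand, PFKFB4 held 1 match and HK2 held 3. A second annotated start of HK2 had 6 matches and 2 copies of the E-box CACGTG, which contains ACGTG on both strands. Across the members, 36 of 59 windows (61%, 26 of the 32 members with a window) held ACGTG or GCGTG, against 48.4% of all 35116 RefSeq windows of the same length. Some members have several windows, and the share of members has no counterpart over all genes here. Windows of PDHA1 (4 matches) and PGD (3) belonged to members that rose in spheres, and those of GAPDH and ENO1 (2 each) to members not called. TKT and RPE fell there with 0 matches, and PGK1 (4) and LDHA (6 at its upstream start) fell as well. Whether matches go with the calls was not tested. E-boxes were in 10.2% of member windows and 7.26% of all windows. TKTL1's window held 18 CpG dinucleotides, TKT's 31, TALDO1's 44, and the median over all windows was 14. A match is a stretch of letters and not a measured binding site.

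The first question was whether TKT and TALDO1 followed the loss of TKTL1. TKTL1 was present in all shCtrl libraries and at or near 0 in all shSigma libraries of both cultures. TALDO1 was higher in shSigma cells of both cultures. TKT was lower in shSigma spheres and was not called in adherent cells, and the difference between the cultures passed its own test. The gene TKTL1 lies on the plus strand at chrX:154295795-154330350 (GENCODE 44, GRCh38), TKT on the minus strand at chr3:53224712-53256052 and TALDO1 on the plus strand at chr11:747415-765012.

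TKTL1 was at 45.2, 39.0 and 35.03 CPM in adherent shCtrl cells and at no more than 1 count in any adherent shSigma library. Taking 3 counts per library as the floor, its level was at least 270-fold lower. In spheres it was at 40.6, 49.1 and 44.3 CPM in shCtrl cells and at no more than 2 counts in any shSigma library, at least 286-fold lower. TKTL1 passed the filter on low counts through the shCtrl libraries alone, so a difference was bound to follow. In the control cells TKTL1 was the minor transketolase, with 11.5% ± 3.71 (SD, n = 3) of the family's CPM per kilobase of exons in adherent cells and 8.92% ± 1.5 in spheres. TKT took nearly all the rest, and TKTL2 was seen as a single count in a single library. These shares depend on the lengths used, 9502 exon bases for TKT and 3570 for TKTL1. Undivided by length, TKTL1 and TKT had means of 39.75 and 853.7 CPM in adherent shCtrl cells. In sphere shCtrl cells the means were 44.65 and 1224 CPM.

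TKT encodes the transketolase that moves ketol units between sugar phosphates. In adherent cells it was at 661, 827 and 1073 CPM in shCtrl libraries and at 978, 1076 and 700 CPM in shSigma libraries. The groups overlapped entirely, and the log2 fold change was 0.05 (95% confidence interval -0.52 to 0.63, edgeR adjusted p = 0.866). In spheres TKT was at 1292, 1101 and 1278 CPM against 653, 665 and 670 CPM. All shSigma spheres were below all shCtrl spheres and TKT fell by 0.89 on the log2 scale (interval -1.04 to -0.74, adjusted p = 5.60e-07). The knockdown differences in the 2 cultures differed by -0.99 (adjusted p = 0.0147), with an adherent estimate that sits on widely spread libraries. With counts corrected for the GC content of each transcript, a correction added after the data were seen, the adherent value was -0.05 (adjusted p = 0.755), the sphere value -0.92 (3.59e-09) and the difference -0.86 (9.14e-04). The 40 tested genes nearest to TKT on chromosome 3 had a median log2 fold change of -0.59 in adherent cells and -0.52 in spheres. TKT's own estimate was above this median in adherent cells and below it in spheres. The part of this shared shift in TKT's values was not tested.

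TALDO1 encodes transaldolase, which moves dihydroxyacetone units in the same arm. It was at 116, 117 and 134 CPM in adherent shCtrl cells and 181, 178 and 162 CPM in adherent shSigma cells, and at 175, 177 and 177 against 228, 219 and 223 CPM in spheres. The groups did not overlap in either culture. TALDO1 rose by 0.44 (SE 0.0865, adjusted p = 0.0041) and 0.34 (SE 0.0468, adjusted p = 6.47e-05), with no difference between cultures past the threshold (interaction -0.16, interval -0.36 to 0.04, adjusted p = 0.236). The 40 tested genes nearest to it on chromosome 11 had medians of 0.58 in adherent cells and 0.33 in spheres, close to its own values, and the part of this shared shift in its rise was not tested.

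Summed over TKT, TKTL1 and TKTL2, the level per length was 82.3, 97.9 and 122.8 CPM per kilobase in adherent shCtrl cells against 102.9, 113.3 and 73.7 in adherent shSigma cells. The groups overlapped (ratio of means 0.957, exact two-sided permutation p = 0.8, n = 3 each). The sum includes TKTL1, whose loss was known beforehand, so part of its difference was fixed in advance in both cultures. In adherent cells mean TKTL1 went from 11.13 in shCtrl to 0.00895 CPM per kilobase in shSigma, and mean TKT from 89.85 to 96.62. In spheres the sum was 147.4, 129.7 and 146.9 against 68.7, 70.1 and 70.6 CPM per kilobase. The family's level in shSigma spheres, almost all TKT, was 0.494 of that in control spheres, where TKTL1 is included. For TKT alone the fold was 0.54. The exact permutation p was 0.1, the smallest that 3 libraries against 3 allow. With TKTL1 in the sum, it adds no support to the result for TKT.

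**Figure D1:**
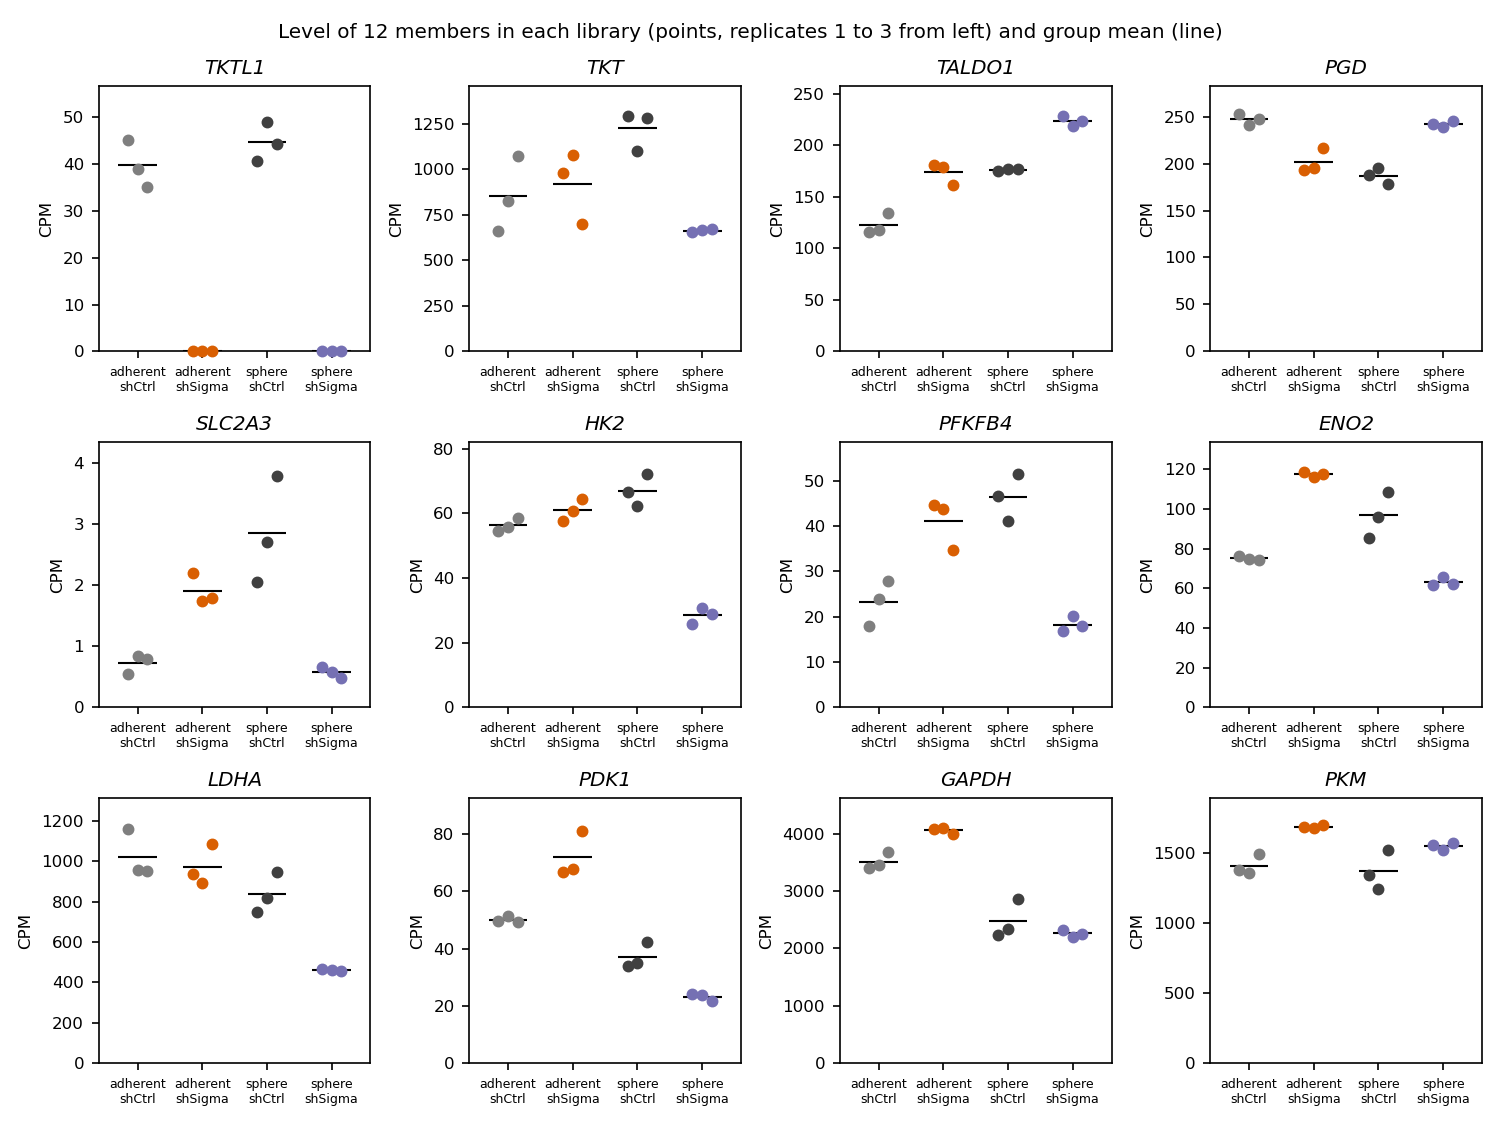
Level of 12 members in CPM (vertical axes from 0) in each of the 12 libraries, by group; points are libraries and lines are means. TKTL1 sits near 0 in all shSigma libraries, TKT is at 653 to 670 CPM in the 3 shSigma spheres, below every shCtrl sphere library, and SLC2A3, PFKFB4, ENO2 and PDK1 are higher in adherent shSigma and lower in sphere shSigma than in the matching shCtrl libraries.

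Across all members, the knockdown gave mixed calls in adherent cells and mostly lower levels in spheres. Called means an adjusted p under 0.05 in edgeR's quasi-likelihood test over all genes. In adherent cells, 34 of the 35 members were tested and 9 were higher and 5 lower, that is 26.5% and 14.7%, beside 22.3% and 27.7% of all 13764 genes tested. Their median log2 fold change was 0.05, and that of all genes -0.01. In spheres, 7 were higher and 16 lower, 20.6% and 47.1% beside 30.2% and 30.9% of 13774 genes, with a median of -0.26 against 0.00. Falls past 1 on the log2 scale in spheres were seen for SLC2A3, HK2, PFKFB4 and TKTL1, 11.8% of those tested beside 7.17% of all genes. Of these, SLC2A3 and TKTL1 passed the filter through the shCtrl libraries alone. SLC16A1, a lactate and pyruvate transporter, was not tested in any comparison, since it had 1 count in 1 sphere shCtrl library and 0 counts elsewhere. The part of the authors' counting in this level was not tested, and it is given here as a listed value only. A lower level in these bulk libraries cannot be told apart from fewer cells that express the gene.

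**Figure D2:**
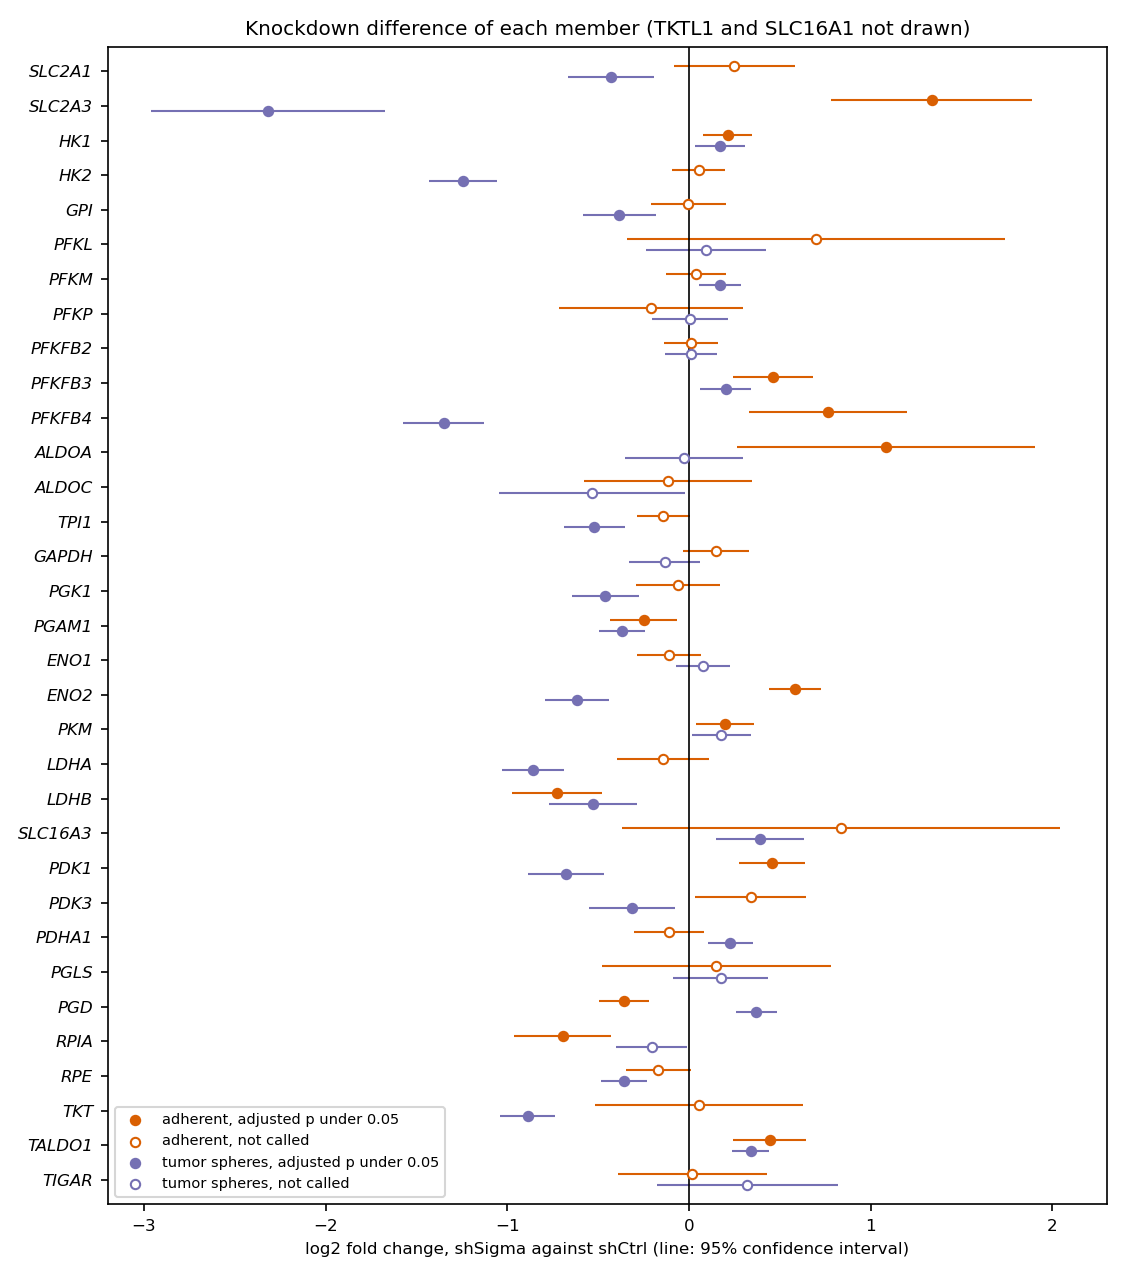
Log2 fold change of shSigma against shCtrl (horizontal axis) for 33 members in adherent cells (orange) and tumor spheres (purple), with 95% confidence intervals; filled points have an adjusted p under 0.05. SLC2A3, PFKFB4, ENO2 and PDK1 lie to the right of 0 in adherent cells and to the left in spheres, and PGD the other way round.

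Single libraries decided some of these calls. In adherent cells PGAM1 was no longer called after any 1 library was left out (adjusted p 0.0796 to 0.163), PKM after any but shCtrl replicate 3 (0.0607 to 0.127), ALDOA after replicate 1 or 2 of either group (0.0769 to 0.111), HK1 without shCtrl replicate 2 (0.0604) and PGD without shSigma replicate 1 (0.0628). In spheres HK1 lost its call without shSigma replicate 2 or 3 or shCtrl replicate 2 (0.0913 to 0.108), PDK3 without shSigma replicate 1 or 2 or shCtrl replicate 3 (0.0704 to 0.12), PFKFB3 without shSigma replicate 2 (0.0667) and PFKM without shSigma replicate 3 (0.0599). None of these changed sign. The calls of SLC2A3, PFKFB3, PFKFB4, ENO2, LDHB, PDK1, RPIA and TALDO1 in adherent cells, and of SLC2A1, HK2, GPI, PFKFB4, TPI1, PGK1, PGAM1, ENO2, LDHA, LDHB, SLC16A3, PDK1, PDHA1, PGD, RPE, TKT and TALDO1 in spheres, held in each of the 6 fits with 1 library left out. TKTL1 in both cultures and SLC2A3 in spheres also kept their calls. They passed the filter through the shCtrl libraries alone, so this adds no support.

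Both glucose transporters among the members were detected, SLC2A1 (GLUT1), the widely expressed one, and SLC2A3 (GLUT3), the high-affinity one. SLC2A3 was at 0.538, 0.846 and 0.789 CPM in adherent shCtrl and 2.19, 1.74 and 1.78 CPM in adherent shSigma cells, a rise of 1.34 (adjusted p = 0.00258). In spheres it was at 2.05, 2.71 and 3.78 CPM against 0.655, 0.583 and 0.477 CPM, a fall of 2.32 on the log2 scale (3.40e-05). It was therefore on opposite sides in the 2 cultures. In spheres SLC2A3 passed the filter through the shCtrl libraries alone, so the filter favoured a fall and the adjusted p adds no support for one. SLC2A1 was at 126, 112 and 153 CPM in sphere shCtrl and 92.2, 101 and 97.9 CPM in sphere shSigma cells, a fall of 0.43 (adjusted p = 0.00555). In adherent cells SLC2A1 was at 123, 139 and 170 against 185, 194 and 156 CPM, with a log2 fold change of 0.25 (interval -0.08 to 0.58, adjusted p = 0.183). SLC2A3 held 1.94% ± 0.416 (SD, n = 3) of the pair's level per length in control spheres and at most 1.07% in any library of the other groups.

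Hexokinase traps glucose as glucose 6-phosphate. HK2, the inducible hexokinase of many tumors, was at 54.5, 55.7 and 58.6 CPM in adherent shCtrl and 57.8, 60.8 and 64.5 CPM in adherent shSigma cells. In spheres it was at 66.6, 62.3 and 72.3 against 25.7, 30.7 and 28.8 CPM. HK2 fell by 1.24 on the log2 scale in spheres (adjusted p = 2.08e-07), was not called in adherent cells (0.05, interval -0.09 to 0.20), and the difference between cultures passed (-1.36, adjusted p = 1.63e-06). HK1, the housekeeping isoform, rose by 0.21 in adherent cells (adjusted p = 0.0168) and 0.17 in spheres (0.0318). HK2 took 37.6% ± 0.841 of the HK1 and HK2 level per length in control spheres and 18.4% ± 0.953 in shSigma spheres, against 29.0% ± 0.248 and 26.8% ± 1.01 in adherent cells. GPI, the isomerase at the branch point of glycolysis and the pentose pathway, fell by 0.38 in spheres (247, 251 and 310 against 192, 212 and 216 CPM, adjusted p = 0.00407).

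Of the 3 phosphofructokinase subunits, PFKM alone was called, in spheres, and its rise was small (0.17, adjusted p = 0.0157, 116, 119 and 125 against 137, 131 and 138 CPM). PFKL, the liver-type subunit, was at 47.5, 69.2 and 119 CPM in adherent shCtrl and 144, 172 and 77.4 CPM in adherent shSigma libraries, an example of libraries of 1 group spread more widely than the groups differ (0.70, interval -0.34 to 1.74). PFKP, the platelet-type subunit, gave -0.21 (interval -0.72 to 0.30) in adherent cells and 0.00 (interval -0.20 to 0.21) in spheres.

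The PFKFB genes encode bifunctional enzymes that set fructose 2,6-bisphosphate, the activator of phosphofructokinase. PFKFB4 was at 17.9, 23.98 and 27.9 CPM in adherent shCtrl and 44.7, 43.6 and 34.7 CPM in adherent shSigma cells. In spheres it was at 46.6, 41.1 and 51.5 against 16.8, 20.1 and 17.9 CPM. The levels of control spheres thus overlapped those of adherent shSigma cells, and the levels of shSigma spheres those of adherent shCtrl cells. PFKFB4 rose by 0.76 in adherent cells (adjusted p = 0.0119), fell by 1.35 in spheres (4.47e-07), and the cultures differed by -2.16 (1.64e-05). PFKFB3 rose in both cultures, by 0.46 (0.00489) and 0.20 (0.0169), and PFKFB2 was called in neither (0.01 and 0.01).

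Aldolase splits fructose 1,6-bisphosphate. ALDOA was listed at 2.69, 3.26 and 6.04 CPM in adherent shCtrl and 8.14, 11.3 and 6.95 CPM in adherent shSigma cells, a rise of 1.08 (adjusted p = 0.0365). Its counts are uncertain: 42.8% of its exon bases also lie in another gene annotated on the same strand (ENSG00000285043), and reads in shared bases can be left out or split by a counter. In spheres ALDOA gave -0.03 (interval -0.35 to 0.30), and ALDOC, the brain-type aldolase, was below 3.1 CPM in every library and called in neither culture.

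Of the 7 members at the triose and payoff steps, 4 fell in spheres and none rose, and 1 fell and 2 rose in adherent cells, beside 30.9% of all genes called lower and 30.2% higher in spheres and 27.7% and 22.3% in adherent cells. TPI1, which interconverts the triose phosphates, was at 572, 644 and 712 CPM in sphere shCtrl and 475, 433 and 438 CPM in sphere shSigma cells and fell by 0.52 (adjusted p = 1.12e-04). PGK1, the first ATP-making step, was at 419, 471 and 540 against 360, 332 and 350 CPM and fell by 0.46 (adjusted p = 6.86e-04). PGAM1, which shifts the phosphate of 3-phosphoglycerate, fell by 0.37 in spheres (1.74e-04) and 0.25 in adherent cells (0.0315). GAPDH and ENO1, which oxidise glyceraldehyde 3-phosphate and make phosphoenolpyruvate, were called in neither culture: GAPDH gave 0.15 (interval -0.03 to 0.33) and -0.13 (-0.33 to 0.06), and ENO1 gave -0.11 (-0.28 to 0.07) and 0.08 (-0.07 to 0.23).

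ENO2, the neuronal enolase, was at 76.2, 74.8 and 74.4 CPM in adherent shCtrl and 119, 116 and 118 CPM in adherent shSigma cells. In spheres it was at 85.6, 96.1 and 108 against 61.9, 65.5 and 62.4 CPM. It rose by 0.58 in adherent cells (adjusted p = 2.22e-04) and fell by 0.62 in spheres (4.79e-05), and its groups were apart in both. ENO2's share of the ENO1 and ENO2 level per length went from 2.20% ± 0.107 to 3.51% ± 0.0528 in adherent cells and from 5.14% ± 0.313 to 3.25% ± 0.208 in spheres. PKM, pyruvate kinase, rose by 0.20 in adherent cells (0.0439) and gave 0.18 (interval 0.01 to 0.34, adjusted p = 0.0579) in spheres.

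Lactate dehydrogenase A favours the reduction of pyruvate and B the reverse. LDHA was at 750, 817 and 945 CPM in sphere shCtrl and 467, 463 and 458 CPM in sphere shSigma cells, and fell by 0.86 (adjusted p = 2.22e-06). In adherent cells it was at 1158, 958 and 951 against 936, 892 and 1084 CPM, overlapping groups with a log2 fold change of -0.14 (interval -0.39 to 0.11). LDHB fell in both cultures, from 87.9, 80.7 and 72.2 to 54.1, 46.1 and 52.3 CPM in adherent cells (-0.72, adjusted p = 0.00103) and from 103, 136 and 112 to 89.7, 71.1 and 82.9 CPM in spheres (-0.53, 0.00215). A same-strand gene covers 33.4% of LDHB's exon bases, so its counts are uncertain as well. LDHB's share of the pair per length was 13.7% ± 0.722 in shCtrl and 9.60% ± 0.79 in shSigma adherent cells, with groups apart, and was 22.1% ± 2.91 and 26.1% ± 2.21 in spheres, with overlapping groups. The size of this share depends on the lengths used, 2983 exon bases for LDHB and 6026 for LDHA. SLC16A3 (MCT4), which exports lactate, was at 138, 110 and 148 against 182, 182 and 157 CPM in spheres, a rise of 0.39 (adjusted p = 0.0113) that was not called when all 12 libraries shared 1 fit (0.448). In adherent cells its libraries spread from 53.9 to 157 CPM and from 96.1 to 244 CPM, and no difference was detectable (0.84, interval -0.37 to 2.04).

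**Figure D3:**
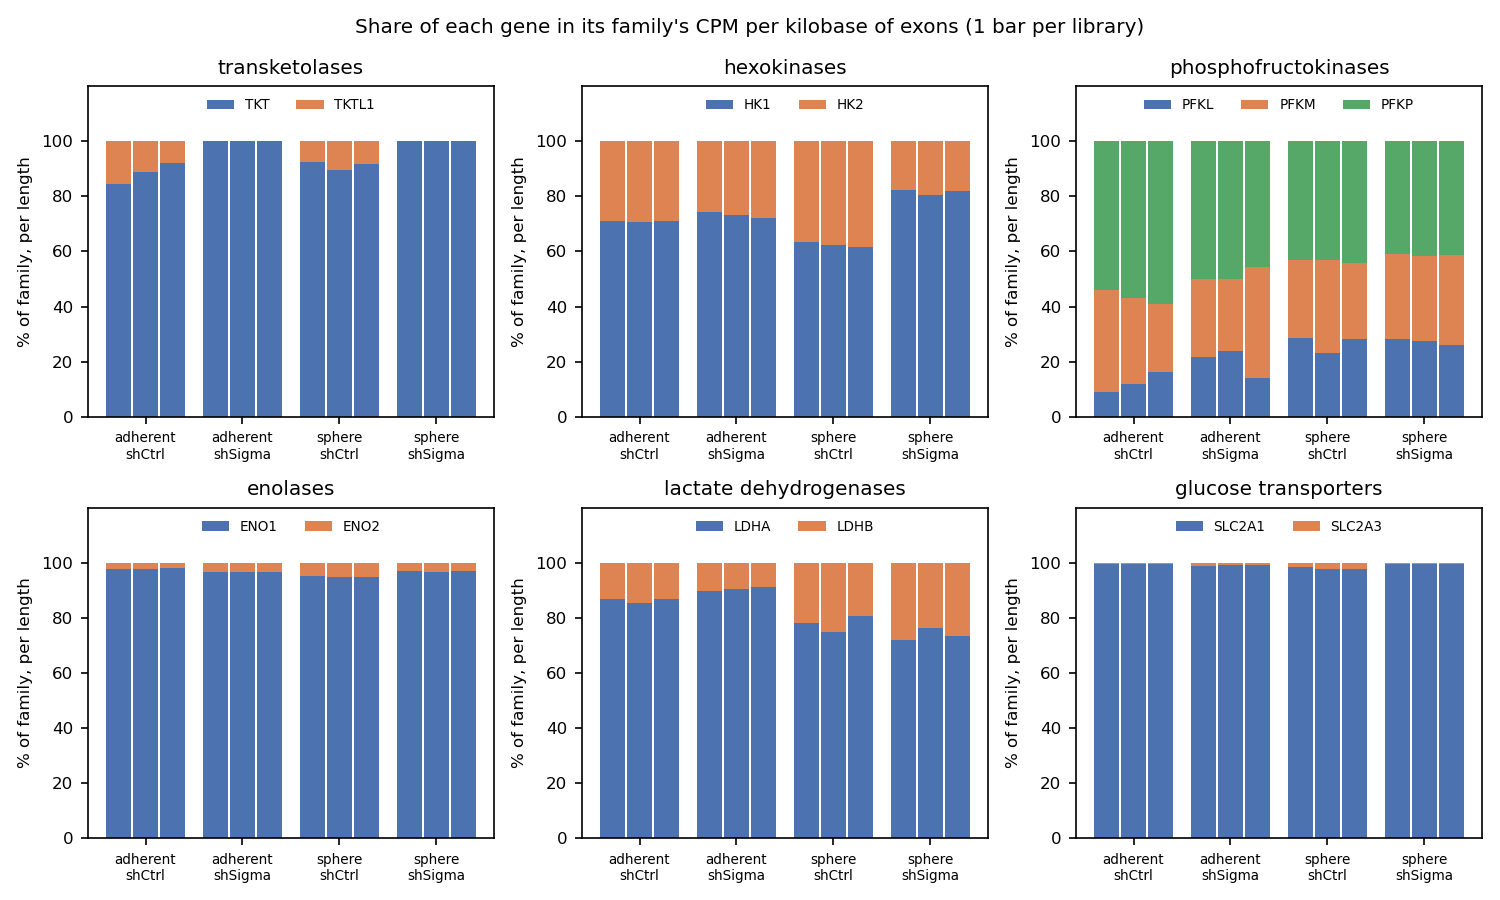
Share of each gene in its family's CPM per kilobase of exons (vertical axis, %) in each library, 1 stacked bar per library. HK2 takes 37.6% of the hexokinase pair in control spheres and 18.4% in shSigma spheres, TKTL1 disappears from the transketolases of shSigma cells, and PFKL varies among adherent replicates.

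Pyruvate dehydrogenase sends pyruvate into the citric acid cycle and pyruvate dehydrogenase kinases switch it off. PDK1 was at 49.7, 51.2 and 49.3 CPM in adherent shCtrl and 66.7, 67.7 and 81.1 CPM in adherent shSigma cells, and at 34.02, 35.1 and 42.2 against 24.2, 23.8 and 21.8 CPM in spheres. It rose by 0.45 in adherent cells (adjusted p = 0.00218) and fell by 0.68 in spheres (7.16e-05). PDK3 fell by 0.32 in spheres (0.024) and gave 0.34 in adherent cells (interval 0.03 to 0.64, adjusted p = 0.0639). PDHA1, the catalytic alpha subunit that these kinases phosphorylate, rose by 0.23 in spheres (59.7, 62.8 and 62.7 against 71.3, 71.2 and 74.9 CPM, adjusted p = 0.00462) and gave -0.11 in adherent cells (interval -0.30 to 0.08).

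In the oxidative arm of the pentose pathway, PGD, which encodes 6-phosphogluconate dehydrogenase, was the member called lower in adherent cells and higher in spheres. It was at 253, 241 and 247 CPM in adherent shCtrl and 193, 195 and 217 CPM in adherent shSigma cells, and at 188, 196 and 178 against 242, 240 and 246 CPM in spheres. PGD fell by 0.36 in adherent cells (adjusted p = 0.00189), rose by 0.37 in spheres (5.78e-05) and was the single member with a higher interaction (0.67, 6.51e-05). The 40 tested genes nearest to PGD had a median of -0.46 in adherent cells and -0.01 in spheres, and the part of this in PGD's values was not tested. PGLS, the lactonase before it, was called in neither culture (0.15, interval -0.48 to 0.78, and 0.17, interval -0.09 to 0.44).

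The 2 enzymes that convert ribulose 5-phosphate differed. RPIA, the isomerase that makes ribose 5-phosphate, was at 41.6, 34.3 and 34.8 CPM in adherent shCtrl and 22.3, 22.3 and 27.01 CPM in adherent shSigma cells and fell by 0.70 (adjusted p = 0.00178). In spheres RPIA gave -0.21 (interval -0.40 to -0.01, adjusted p = 0.0641). RPE, the epimerase that makes xylulose 5-phosphate, fell by 0.36 in spheres (85.7, 92.4 and 86.2 against 67.8, 67.2 and 71.8 CPM, adjusted p = 2.10e-04) and gave -0.17 in adherent cells (interval -0.35 to 0.01). TIGAR, which lowers fructose 2,6-bisphosphate, was at 1.31 to 2.56 CPM over all libraries and called in neither culture. A same-strand gene covers 18.1% of TIGAR's exon bases, so its counts are uncertain as well. Opposite-strand genes cover 23.8% of RPE's exon bases, 19.3% of PDHA1's and 17.6% of GAPDH's. With the strand setting of counting not given, the counts of these genes are also uncertain.

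Whether the knockdown difference itself depended on the culture was tested with all 12 libraries. Of 34 members, 1 was higher (PGD) and 13 lower, 2.94% and 38.2% beside 12.7% and 15.6% of 14175 genes, with a median of -0.33 against -0.03 over all genes. The 13 were SLC2A1, SLC2A3, HK2, GPI, PFKFB4, ALDOA, TPI1, PGK1, ENO2, LDHA, PDK1, PDK3 and TKT, and a negative value means that shSigma against shCtrl was lower in spheres than in adherent cells. The largest were SLC2A3 at -3.71 (adjusted p = 1.14e-05), PFKFB4 at -2.16, HK2 at -1.36, ENO2 at -1.26 (1.57e-06) and PDK1 at -1.19 (2.43e-05). The interactions of ALDOA (adjusted p 0.0647 to 0.105) and PGK1 (0.0575 to 0.132) were each lost after 9 of the 12 single libraries were left out, and GPI's after 5 (0.0543 to 0.128). SLC2A1's was lost without adherent shCtrl replicate 1 (0.0599), and TPI1's with GC-corrected counts (-0.30, adjusted p = 0.202).

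The cultures were then compared within each hairpin. These comparisons use the same libraries as those above and are not independent of them. Among shCtrl cells, 9 of 34 members tested were higher in spheres and 12 lower, 26.5% and 35.3% beside 27.4% and 26.3% of 13800 genes. Among shSigma cells, 3 of 33 tested were higher and 21 lower, 9.09% and 63.6% beside 21.9% and 25.2% of 13622 genes. The medians of the members were -0.16 and -0.45, and those of all genes 0.04 and 0.00.

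In control cells SLC2A3 (1.98, edgeR adjusted p = 8.37e-04), PFKFB4 (0.99, 0.00211), LDHB (0.54, 0.00565), TALDO1 (0.52, 5.01e-04), ENO2 (0.36, 0.00951) and HK2 (0.25, 0.024) were higher in spheres, together with ALDOA, TKT and RPE. TKT's value was 0.52 (adjusted p = 0.04) and was no longer called without adherent replicate 2 or any 1 sphere replicate (0.0562 to 0.116). HK2's call was lost in 4 of 6 such fits (0.0833 to 0.195), RPE's in all 6 (0.0646 to 0.282), ENO2's without sphere replicate 3 (0.0744), ALDOA's without adherent replicate 2 (0.0705), PFKP's without sphere replicate 2 (0.0632) and PGK1's without adherent replicate 2 or sphere replicate 1 or 2 (0.0624 to 0.0847). ENO1 at -0.91 (8.59e-05), RPIA at -0.73 (9.65e-04), PFKFB2 at -0.62 (1.26e-04) and GAPDH at -0.50 (0.00562) were lower in spheres. TKTL1 was at 35.03 to 45.2 CPM in adherent and 40.6 to 49.1 CPM in sphere control cells, with no call (0.17, interval -0.10 to 0.43).

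In shSigma cells LDHB (0.70, edgeR adjusted p = 8.21e-04), TALDO1 (0.39, 0.0027) and PGD (0.29, 0.00196) were higher in spheres, and the lower members included SLC2A3 (-1.70), PDK1 (-1.60, 6.30e-06), PFKFB4 (-1.15), HK2 (-1.08), LDHA (-1.05, 1.40e-05) and ENO2 (-0.87). SLC2A3 passed the filter here through the adherent libraries alone, so the filter favoured its fall. TKT gave -0.45 (interval -0.89 to -0.01, adjusted p = 0.0826) and PKM -0.10 (interval -0.21 to 0.02). SLC2A3, PFKFB4, HK2 and ENO2 were thus higher in spheres than in adherent cells with the control hairpin and lower with the targeting hairpin, while ENO1, GAPDH, PFKFB2, PFKFB3, PFKM, PFKP, HK1, PGK1, PDK1 and RPIA were lower in spheres with both. Calls of RPIA, PFKP and PFKM in shSigma cells were lost after 4, 5 and 2 of the 6 single libraries were left out (adjusted p 0.0528 to 0.111, 0.0827 to 0.12 and 0.0513 to 0.0706). ALDOC (-0.67) stood at the threshold in shSigma cells and lost its call in 4 of these 6 fits (0.0834 to 0.146).

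**Figure D4:**
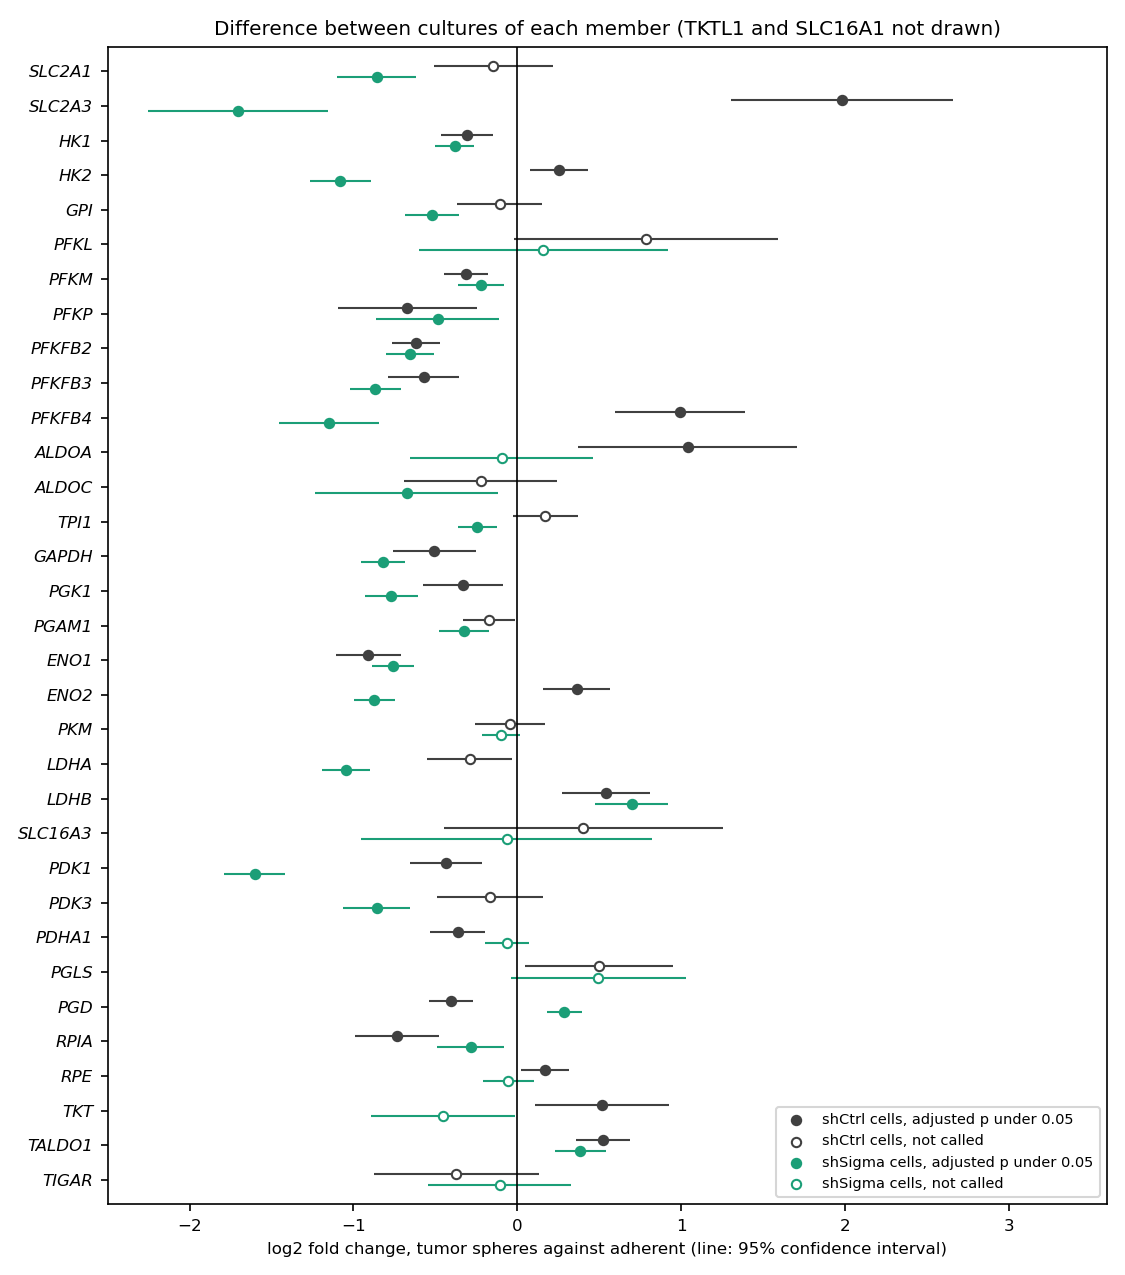
Log2 fold change of tumor spheres against adherent cells (horizontal axis) for 33 members in shCtrl cells (dark grey) and shSigma cells (green), with 95% confidence intervals; filled points have an adjusted p under 0.05. SLC2A3, HK2, PFKFB4 and ENO2 lie to the right of 0 in shCtrl cells and to the left in shSigma cells.

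The pathways hold 50 further genes that were listed by name, of which 35 were tested in adherent cells and 34 in spheres. In adherent cells 8 of these were higher and 12 lower in shSigma cells (22.9% and 34.3%, beside 22.3% and 27.7% of all genes), and in spheres 10 were higher and 11 lower (29.4% and 32.4%, beside 30.2% and 30.9%). In the interaction 7 of 35 were higher, beside 12.7% of all genes, and 6 were lower (17.1%, beside 15.6%). By the rule of the largest called change in each direction, HKDC1, a hexokinase-domain protein, went from 0.586, 0.939 and 0.302 CPM to 5.70, 5.67 and 5.09 CPM in spheres, where it passed the filter through the shSigma libraries alone, so a difference was bound to follow. PDK4, a pyruvate dehydrogenase kinase like PDK1, fell there by 1.00 (26.1, 25.2 and 19.6 against 12.1, 11.1 and 12.3 CPM, edgeR adjusted p = 1.33e-05). In adherent cells RBKS, ribokinase, fell by 0.99 (16.4, 14.3 and 15.6 against 7.62, 7.73 and 9.12 CPM, adjusted p = 2.81e-04), and FBP1, the gluconeogenic fructose bisphosphatase, had 1, 3 and 3 counts in shCtrl and 37, 18 and 20 counts in shSigma libraries and likewise passed through the shSigma libraries alone.

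The adherent libraries varied with the GC content of transcripts, and this touches several members. Spearman's correlation across genes between a library's deviation from its group mean and transcript GC content was -0.654, -0.00432 and 0.706 in adherent shCtrl replicates 1 to 3 and 0.44, 0.61 and -0.651 in adherent shSigma replicates 1 to 3, and within -0.417 to 0.312 in the sphere libraries. Genes of 1 library are not independent replicates, so these describe the libraries. Replicate 3 minus replicate 1 had opposite signs in shCtrl and shSigma cells for 26 of 34 members, as for SLC16A3 (1.53 and -1.11 on the log2 scale), PFKL (1.31 and -0.89) and TKT (0.70 and -0.48). With GC-corrected counts 13 members were called higher and 6 lower in adherent cells, 8 and 18 in spheres, and 4 and 15 in the interaction. With the same correction 31.7% and 32.3% of all genes were called higher and lower in adherent cells, 31.4% and 31.6% in spheres, and 20.8% and 20.7% in the interaction.

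**Figure D5:**
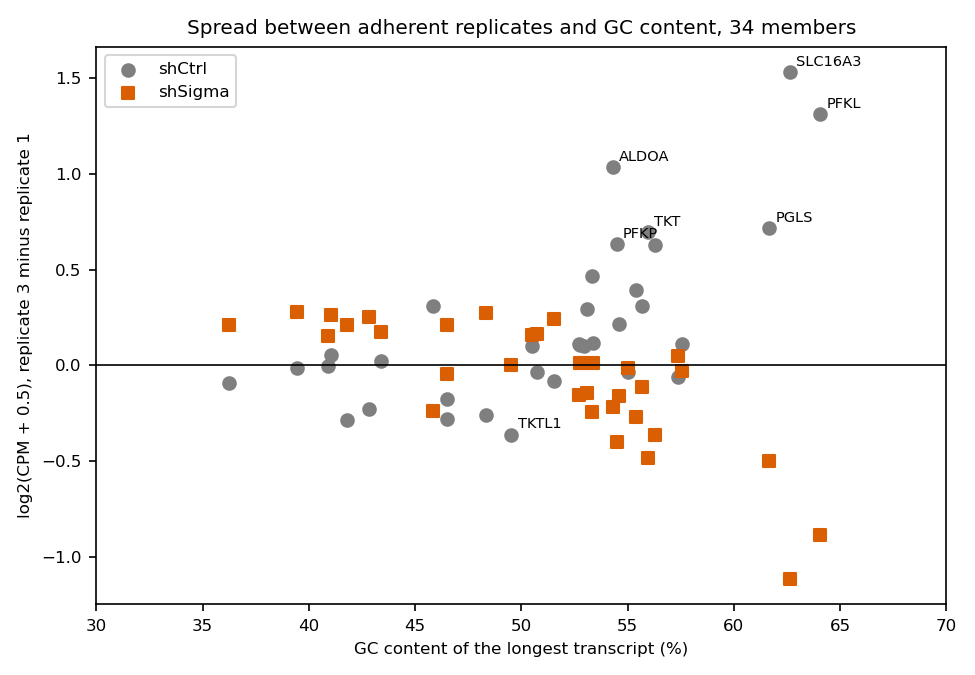
Difference of log2(CPM + 0.5) between adherent replicates 3 and 1 (vertical axis) against the GC content of the longest transcript in % (horizontal axis) for 34 members, in shCtrl (grey circles) and shSigma cells (orange squares). SLC16A3 and PFKL, the members with the highest GC content, differ most, upwards in shCtrl and downwards in shSigma cells.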

How the data were processed

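The 12 libraries (polyA RNA, prepared from 800 ng of total RNA with a directional kit, single-end 75-nt reads) were mapped by the authors with STAR 2.6.1c to GRCh38.p12, and the deposited values are raw read counts per Ensembl gene, not normalized; the annotation release and strand setting of counting are not given in the sources used here. Columns were matched to groups by their labels, and 0 columns were left unused. Symbols came from GENCODE 44 (26153 of 28747 identifiers). Levels are CPM with TMM factors over all libraries. Levels compared between genes are CPM per kilobase of the union of exons, so shares within a family depend on these lengths.

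Differences were tested with edgeR 4.0.16 (R 4.3.3; robust quasi-likelihood F test, TMM, filterByExpr with a minimum count of 10, Benjamini-Hochberg over all genes tested), each comparison on its 6 libraries and the interaction on 12, with calls at an adjusted p under 0.05. The study's own test, DESeq2, was run here as an alternative (version 1.42.0), with edgeR as the main test. Library totals of 16472722 to 26957777 counts set the precision; floors of 3 counts cover counting error only. On simulated counts with 200 changed genes the test recovered 169 (adherent), 189 (sphere), 158 (interaction), 171 (culture, shCtrl) and 174 (culture, shSigma), with 11 to 13 false calls. These genes changed by at least 1 on the log2 scale, and counts were drawn independently, without the GC variation of the adherent libraries. Most member changes were smaller and far more genes were called in the data, so these rates do not describe the member calls. Replicates differed beyond sampling noise (chi-square per gene of at least 2.73), so each counted as 1 sample.

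The genes named are all members and of 50 other pathway genes the called one with the largest change in each direction in each knockdown comparison; the hairpin's target, the neighbours of TKTL1 and some markers were also in the rule and are not reported here. Members and lists were chosen with earlier results of these data known. Alternatives were other normalizations, filters, DESeq2, 1 fit of all libraries, a replicate block, each library left out, other length measures, and, added after the data were seen, offsets from 20 bins of transcript GC content. Promoter windows are RefSeq's (GRCh38.p14; 32 of 35 members matched); protein sequences were not used here.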

Additional observations from a re-analysis of the deposited data

Results flagged for a closer look

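The knockdown difference of 14 members differed between tumor spheres and adherent cells by edgeR's interaction test over 12 libraries (adjusted p under 0.05), and these are listed as values, spheres minus adherent on the log2 scale. Among transporters SLC2A3 gave -3.71 and SLC2A1 -0.73. Among the early steps PFKFB4 gave -2.16, HK2 -1.36, ALDOA -1.16 and GPI -0.44. Among the later steps ENO2 gave -1.26, LDHA -0.78, PGK1 -0.46 and TPI1 -0.44. At pyruvate entry PDK1 gave -1.19 and PDK3 -0.72. In the pentose phosphate pathway TKT gave -0.99 and PGD 0.67, the one positive value. For SLC2A3, PFKFB4, ENO2 and PDK1 the knockdown was called higher in adherent cells and lower in spheres, and for PGD lower in adherent cells and higher in spheres. SLC2A3 passed the filter in spheres through the shCtrl libraries alone, so its call there adds no support for a fall.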

How the results depend on the processing

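Of 2564 alternative values for single members, 2282 kept their direction and their side of the threshold, 130 lost a call, 70 gained one, 81 changed sign while called in neither fit, and 1 reversed a value that was then called: PFKL between cultures in shSigma cells was -0.47 with GC offsets (adjusted p = 1.73e-04, edgeR), against 0.16 uncorrected. Most lost calls came with fewer libraries in the fit. The number of members higher in adherent shSigma cells was 9 and fell to 5 with the replicate block. Replicate numbers were not taken as a pairing. Same-numbered libraries correlated between -0.817 and 0.379 in their deviations from the group means, and differently numbered ones by up to 0.787, so not every library correlated best with its own number. The deviations of adherent libraries also varied with GC content, so these correlations cannot decide whether cultures were paired. The block changed no other count of members by more than 1.5 times. The number with a higher interaction was 1, and 2 with DESeq2, 3 with DESeq2 size factors, 3 with no filter, 3 with at least 10 counts in every library and 4 with GC offsets, and 1 to 4 with 1 library left out. The number with a lower interaction was 13, and 8 at an adjusted p under 0.01. With 1 library left out, the members lower in adherent shSigma cells numbered 3 to 5 (3 without shSigma replicate 1), and the members higher in control spheres than in control adherent cells 5 to 11 (5 without adherent replicate 2 or sphere replicate 3), against 9. The summed transketolases of adherent cells differed by -4.36 CPM per kilobase between shSigma and shCtrl means, and by -13.7 to 7.12 with 1 library left out, turning positive without shSigma replicate 3 (7.12) or shCtrl replicate 3 (6.53). PFKM's share of the phosphofructokinases in adherent cells differed by 0.69 percentage points, and by -3.67 to 3.68 points in such fits (negative without replicate 3 of either group). PFKL's share in spheres differed by 0.50 points, and by -1.24 to 1.42 points (negative without shCtrl replicate 2 or shSigma replicate 1). The causes of these changes were not tested. Low counts limited TIGAR, ALDOC and SLC2A3, at under 5 CPM in every library.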
